A study of Mus musculus with 23 samples.

Results

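The interleukin-1 family of the mouse hypothalamus is described here through 10 genes taken by name: the ligands Il1a, Il1b, Il18 and Il33, the receptor chains and decoys Il1r2, Il1rap, Il1rl1 and Il18r1, the receptor antagonist Il1rn, and the ligand-processing protease Casp1. Of the 10, 9 had a probe set of their own among the 18702 genes measured, 1 probe set each. Il1rl1, the receptor of interleukin-33, and Il1r1, the signalling receptor of interleukin-1, were named by no probe set, alone or together with other genes, and were not analysed here. The study hybridised hypothalamic RNA to 23 whole-transcript arrays, 1 per sample. All mice were male db/db mice, 8 weeks old and kept on chow for 2 weeks. They carry a leptin receptor defect, so every group, vehicle included, is a model of obesity without leptin signalling through the long receptor form. Celastrol, a plant triterpenoid, or DMSO as vehicle (25 µl a day) was injected into the peritoneum, and tissue was taken after 6 h, 1 day or 4 days. Celastrol mice at 6 h gave 3 arrays, and celastrol mice at 1 day, celastrol mice at 4 days and vehicle mice at each of the 3 times gave 4 arrays each. The celastrol dose was 250 µg/kg at 6 h, and no dose for the later times is given in the sources used here. The labels do not say whether a sample is 1 mouse or a pool, so p-values measure the spread between these samples.

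Interleukin-1α and interleukin-1β bind a receptor that recruits the accessory protein encoded by Il1rap and signals through MyD88 to NF-kB. Il1r2 binds the same ligands without signalling and so acts as a decoy, and the antagonist encoded by Il1rn occupies the signalling receptor without activating it. Interleukin-1β and interleukin-18 are made as precursors that caspase-1 cleaves, whereas interleukin-33 is a nuclear protein released from damaged cells. In the hypothalamus, interleukin-1 is known for fever, sickness behaviour and loss of appetite.

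Il1rn was the gene of the set that passed the test between times in vehicle mice, so promoters of it are shown. Of its 3 windows 2 are printed, each as the 250 bases before an annotated start (RefSeq, GRCm38.p6, plus strand). Capitals mark a match to a motif. In the upstream window the capitals are an AP-1 match (TGANTCA) that begins 141 bases before the start. In the downstream window they are an NF-kB match (the letters GGG, any 2 bases, then TTTCC) that begins 51 bases before the start. For the start whose window is not printed, the same NF-kB site begins 29 bases after the start.
Il1rn, chr2:24336610-24336859: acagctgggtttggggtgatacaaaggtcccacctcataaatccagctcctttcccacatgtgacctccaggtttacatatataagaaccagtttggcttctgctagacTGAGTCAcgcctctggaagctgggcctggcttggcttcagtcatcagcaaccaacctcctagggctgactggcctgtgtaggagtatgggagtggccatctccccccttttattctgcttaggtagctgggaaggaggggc
Il1rn, chr2:24345121-24345370: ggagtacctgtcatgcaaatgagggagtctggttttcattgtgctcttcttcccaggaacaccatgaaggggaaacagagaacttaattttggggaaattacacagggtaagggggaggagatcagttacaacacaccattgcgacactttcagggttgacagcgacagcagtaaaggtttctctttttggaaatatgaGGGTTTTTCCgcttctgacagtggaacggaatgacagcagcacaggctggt
RefSeq windows of 300 bases, 250 before to 50 after a start, matched all 10 genes (16 windows). The NF-kB letters, searched on both strands, were in 2 of the 16, both of Il1rn and both over the same site, against 1.63% of 32851 mouse windows. The AP-1 letters were in 2 windows, of Il1a and Il1rn, against 7.81% of all windows. The C/EBP letters (TTGCNNAA) were in 2, of Il1rl1 and Il33, against 10.8%. No match overlapped one of another motif. A match is a description of letters and shows no binding.

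Array medians lay between 8.57 and 8.64 on the log2 scale, and no levels are compared between genes, since each probe set has its own affinity. The mean levels of 6 genes (Il1a, Il1b, Il1r2, Il1rn, Il18r1 and Casp1) fell in the lowest tercile of all genes, those of Il1rap and Il18 in the middle tercile and that of Il33 in the highest. The hypothalamic neuropeptide genes were high throughout: at 6 h Pmch averaged 12.99 in celastrol mice and 13.10 in vehicle mice, and Hcrt averaged 12.81 in celastrol mice and 12.79 in vehicle mice. Prl, a pituitary hormone gene, was above 9 on 4 vehicle arrays, at most 11.28, and reached at most 8.6 on celastrol arrays. The samples are whole tissue, so fewer cells of a type and less RNA per cell cannot be told apart.

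**Figure D1:**
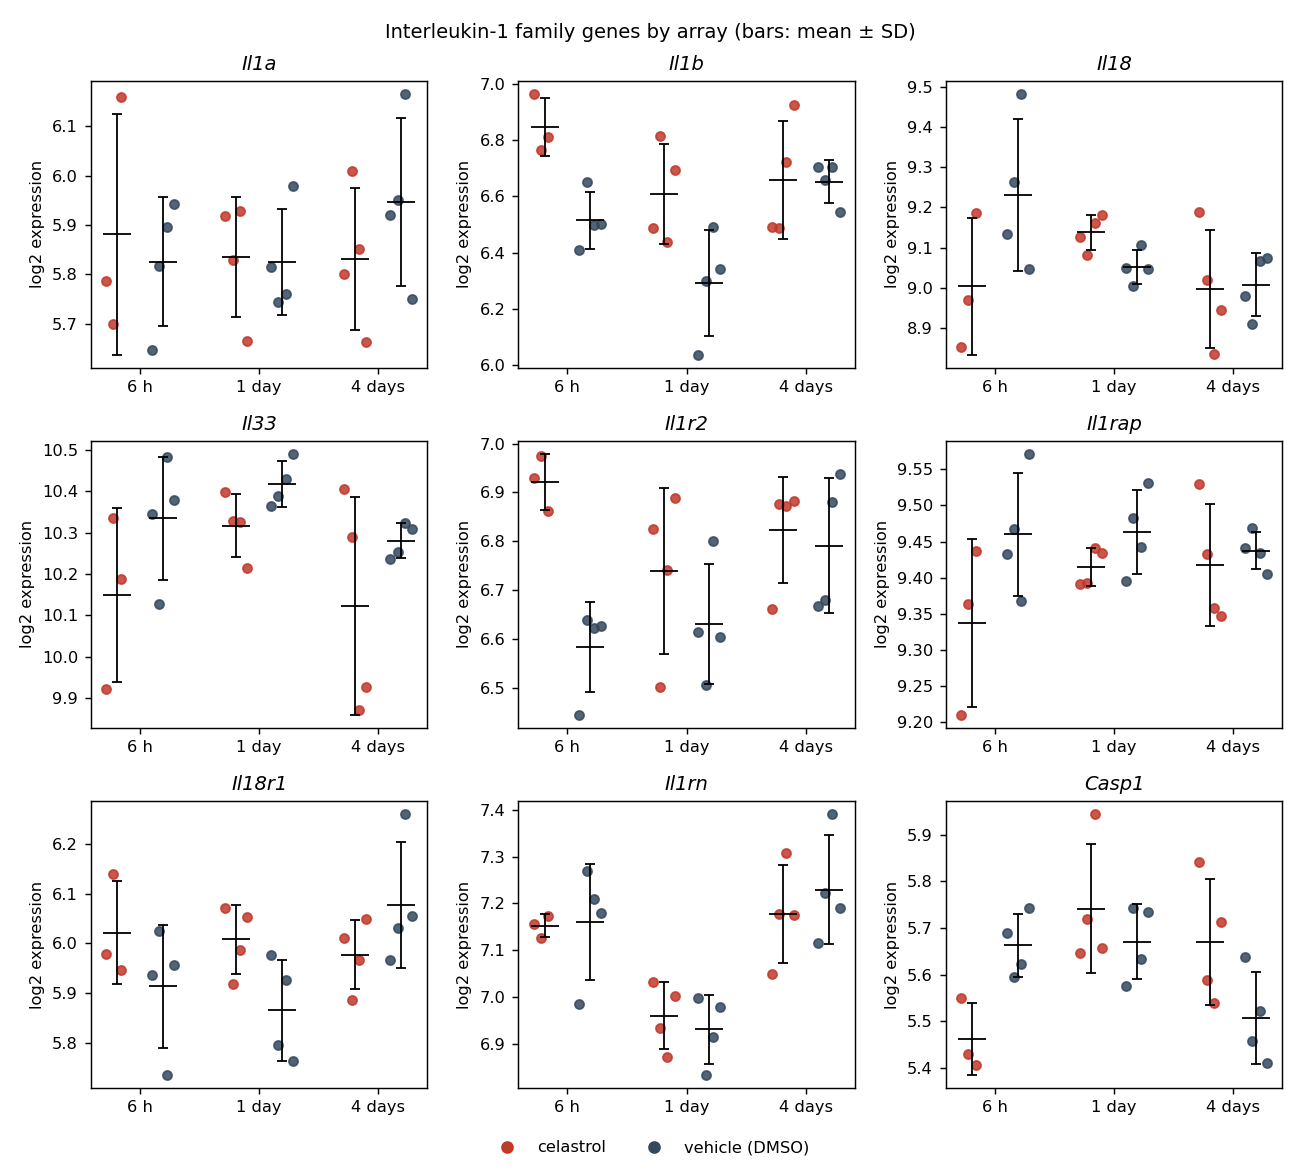
Log2 expression (y axis, its range set for each gene) of the 9 measured genes by time (x axis), with celastrol arrays in red left of vehicle arrays in dark blue. Points are arrays and bars are the mean ± SD. Il1b and Il1r2 at 6 h were higher on the 3 celastrol arrays than on the 4 vehicle arrays, and Il1rn was lower at 1 day than at 4 days under both treatments.

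Among the ligands, Il1b, which encodes interleukin-1β, had the widest span of group means of the 9 genes. On the log2 scale it was 6.96, 6.77 and 6.81 on the celastrol arrays at 6 h, against 6.41, 6.65, 6.50 and 6.50 on the vehicle arrays. Every celastrol array was above every vehicle array at that time. The difference, celastrol minus vehicle, was 0.33 (SE 0.108, 95% interval 0.11 to 0.56), a fold of 1.26, with an adjusted p of 0.201 by limma, so it did not pass 0.05. At 1 day Il1b was 6.49, 6.82, 6.44 and 6.69 with celastrol, against 6.04, 6.30, 6.49 and 6.34 with vehicle. The groups overlapped at 1 day, since the highest vehicle array reached the lower celastrol arrays. The difference was again 0.32 (SE 0.0997, interval 0.11 to 0.52, adjusted p = 0.214). At 4 days the arrays read 6.49, 6.49, 6.72 and 6.93 with celastrol, against 6.70, 6.66, 6.71 and 6.54 with vehicle, a difference of 0.00 (interval -0.20 to 0.21). The celastrol arrays then lay on both sides of the vehicle arrays. The test that the 3 differences are equal gave an adjusted p of 0.392, and their mean was 0.22 (SE 0.0592, adjusted p = 0.176). The 6 group means of Il1b ran from 6.85 (celastrol at 6 h) down to 6.29 (vehicle at 1 day), and the arrays of each pair of neighbours in that order overlapped.

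Il1a, which encodes interleukin-1α, had group means between 5.82 and 5.95. Its differences were 0.06 at 6 h (interval -0.17 to 0.28), 0.01 at 1 day (-0.19 to 0.22) and -0.12 at 4 days (-0.32 to 0.09), all with overlapping groups and adjusted p of 0.82 or more. Il18, which encodes interleukin-18, was 8.85, 8.97 and 9.19 on celastrol arrays at 6 h, against 9.13, 9.26, 9.48 and 9.05 on vehicle arrays. The celastrol arrays thus sat low within an overlapping pair of groups, with a difference of -0.23 (SE 0.0884, interval -0.41 to -0.04, adjusted p = 0.253). Its difference was 0.09 at 1 day and -0.01 at 4 days. Il33, whose product is an alarmin of glia and barrier tissues, read 9.92, 10.34 and 10.19 with celastrol at 6 h, against 10.35, 10.13, 10.48 and 10.38 with vehicle. The groups overlapped, and the difference was -0.19 at 6 h, -0.10 at 1 day and -0.16 at 4 days. Its mean over the times was -0.15 (SE 0.0586, adjusted p = 0.288), and at 4 days its celastrol arrays spread over a wider range (9.87 to 10.40) than the vehicle arrays (10.24 to 10.32).

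Of the receptor chains, Il1r2, the decoy receptor, had the smallest p of the 9 genes at 6 h, ranking 94 among the 18702 genes. It read 6.93, 6.97 and 6.86 on celastrol arrays, against 6.44, 6.64, 6.62 and 6.63 on vehicle arrays. All celastrol arrays were above all vehicle arrays, by 0.34 on average (SE 0.088, interval 0.16 to 0.52, 1.26-fold), with an adjusted p of 0.168. At 1 day the values were 6.83, 6.50, 6.74 and 6.89 with celastrol, against 6.61, 6.51, 6.80 and 6.60 with vehicle, and at 4 days 6.66, 6.88, 6.87 and 6.88 with celastrol, against 6.67, 6.68, 6.88 and 6.94 with vehicle. The groups overlapped at both later times, and the differences were 0.11 (adjusted p = 0.611) and 0.03 (adjusted p = 0.971). The test that the 3 differences of Il1r2 are equal gave an adjusted p of 0.378. Il1rap, the shared signalling chain, had group means between 9.34 and 9.46 and differences of -0.12 at 6 h (SE 0.0571, adjusted p = 0.323), -0.05 at 1 day and -0.02 at 4 days. Il18r1, the ligand-binding chain for interleukin-18, differed by 0.11 at 6 h, 0.14 at 1 day and -0.10 at 4 days, with adjusted p of 0.408 or more and overlapping groups each time.

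The antagonist Il1rn did not separate by treatment. At 6 h it read 7.16, 7.13 and 7.17 with celastrol, against 6.98, 7.27, 7.21 and 7.18 with vehicle, and the celastrol values fell inside the vehicle range. Its difference was -0.01 at 6 h (interval -0.15 to 0.14), 0.03 at 1 day (-0.11 to 0.17) and -0.05 at 4 days (-0.19 to 0.08). Casp1, the protease that matures interleukin-1β, read 5.55, 5.43 and 5.41 with celastrol at 6 h, against 5.69, 5.59, 5.62 and 5.74 with vehicle. Every celastrol array was below every vehicle array, by 0.20 on average (difference -0.20, SE 0.0769, adjusted p = 0.249). At 4 days Casp1 was 5.84, 5.59, 5.54 and 5.71 with celastrol, against 5.64, 5.46, 5.52 and 5.41 with vehicle, a difference of 0.16 (SE 0.0712, adjusted p = 0.631). The difference was thus negative at 6 h and positive at 4 days, and the test that its 3 differences are equal gave F = 6.39 with an adjusted p of 0.201. By limma 0 of the 9 genes passed that test, against 0.0588% of all genes, and 4 had an unadjusted p under 0.05, against 13% of all genes.

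By count, 0 of the 9 genes passed a limma adjusted p of 0.05 between celastrol and vehicle at any time, against 0% of all genes at 6 h, 0.016% at 1 day and 0% at 4 days. At an unadjusted p of 0.05, 5 of the 9 passed at 6 h, against 14.8% of all genes. At 1 day 1 passed (Il1b), against 12.5% of all genes, and at 4 days 1 passed (Casp1), against 7.29%. For the mean over the times 0 passed when adjusted and 3 when not, against 0% and 13.5% of all genes. Of the 5 at 6 h, 2 were higher with celastrol (Il1r2 and Il1b), against 8.56% of all genes, and 3 lower (Casp1, Il18 and Il1rap), against 6.22%. At 6 h the arrays of 2 genes lay fully above those of vehicle, against 5.97% of all genes, and those of 1 gene fully below, against 4.29%. The median difference of the 9 genes was -0.0079 at 6 h, 0.071 at 1 day and -0.020 at 4 days, beside 0.0072, 0.0086 and -0.00053 over all genes. The median half-width of the 9 intervals was 0.182 at 6 h and 0.169 at the later times.

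**Figure D2:**
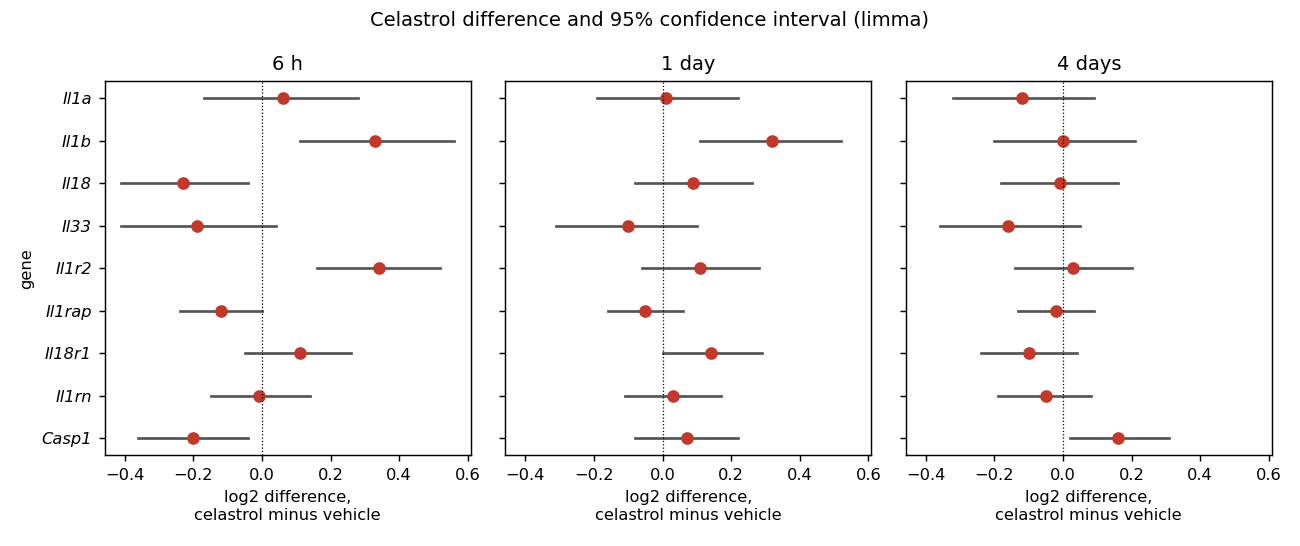
Log2 difference, celastrol minus vehicle (x axis), with its 95% interval from limma, for the 9 genes (y axis) at each time. At 6 h Il1b and Il1r2 lie to the right of 0 at 0.33 and 0.34, and Casp1 and Il18 to the left at -0.20 and -0.23; none passed the adjusted test.

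Several measured properties of the arrays moved with these differences. The SD over genes was lower on celastrol arrays at 6 h (1.87 to 1.917, against 1.922 to 1.943 on vehicle arrays) and at 1 day (1.905 to 1.932, against 1.933 to 1.962), but not at 4 days (1.88 to 1.943, against 1.886 to 1.907). With it, 76.8% of the 6234 genes in the lowest tercile by level were higher with celastrol at 6 h (median difference 0.082), 76.2% at 1 day (0.069) and 37.1% at 4 days (-0.032). Il1b and Il1r2 belong to that tercile, and so does Casp1, which was lower at 6 h. With the SD of each array as a covariate, the difference of Il1b became 0.14 at 6 h and 0.16 at 1 day, and that of Il1r2 at 6 h 0.31. In that limma fit the adjusted p at 6 h was 0.995 for each gene. Of the 12 measured markers of blood neutrophils and monocytes, which are known sources of Il1b and Il1r2, 11 were higher with celastrol at 6 h, 12 at 1 day and 9 at 4 days, with none past the adjusted test. Their summed level was 76.87 to 78.23 with celastrol and 76.24 to 76.88 with vehicle at 6 h, and 76.55 to 77.91 with celastrol and 75.51 to 76.38 with vehicle at 1 day. Ccr2, a monocyte chemokine receptor, differed by 0.32 at 6 h (adjusted p = 0.156), and S100a8, a neutrophil granule gene, by 0.27 at 1 day (adjusted p = 0.191). With the mean of these markers as a covariate, Il1b differed by 0.19 at 6 h and 0.14 at 1 day, and Il1r2 at 6 h by 0.34. The limma adjusted p at 6 h was then 0.86 for each gene. The 7 lymphocyte markers summed to 46.48 to 47.16 with celastrol and 45.29 to 45.92 with vehicle at 6 h, with 6 of 7 higher. At 1 day they summed to 45.59 to 46.12 with celastrol and 44.9 to 45.43 with vehicle, again with 6 of 7 higher. At 4 days the direction turned, with 6 of 7 lower (44.59 to 46.65 with celastrol and 46.26 to 47.21 with vehicle). At 1 day the summed markers of mast cells (69.76 to 70.64 with celastrol and 69.24 to 69.57 with vehicle) and of ependymal cells and tanycytes (87.18 to 87.72 with celastrol and 86.45 to 86.88 with vehicle) did not overlap either. The 11 microglial markers did not separate (97.82 to 98.96 with celastrol and 98.08 to 99.93 with vehicle at 6 h, 3 higher and 8 lower). At 1 day 8 of 11 brain endothelial markers were lower with celastrol, and 6 had an unadjusted p under 0.05, against 12.5% of all genes. At 4 days 10 of 10 meningeal fibroblast markers were lower (median -0.444), and 6 had an unadjusted p under 0.05, against 7.29%. Of the 9 pituitary markers 8 were lower then, and no marker of these lists passed after adjustment. With the fibroblast or pituitary markers as a covariate, Il1b differed by 0.33 at 6 h and 0.32 at 1 day. The neutrophil and monocyte markers averaged 6.33 to 6.50 by group and the lymphocyte markers 6.45 to 6.68, levels found in the lowest tercile. In that tercile 76.8%, 76.2% and 37.1% of genes were higher with celastrol at 6 h, 1 day and 4 days. The part of level in these marker counts was not tested. Beyond the covariate fits, the part of array spread and of other cell types in the differences was not tested.

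Between times, the smallest p of the set was that of Il1rn. In vehicle mice it read 7.12, 7.22, 7.39 and 7.19 at 4 days, against 7.0, 6.83, 6.91 and 6.98 at 1 day, with all 4-day arrays above all 1-day arrays. The F test over the 3 times in vehicle mice gave F = 11.3 with an adjusted p of 0.0161, and Il1rn was the 1 gene of the 9 to pass, against 8.83% of all genes. It lost that call without replicate 2 of vehicle at 1 day (F = 7.45, adjusted p = 0.0603). Vehicle at 6 h was 7.16 ± 0.123, close to vehicle at 4 days (7.23 ± 0.116) and above vehicle at 1 day (6.93 ± 0.0739; SD, 4 arrays each). Celastrol mice showed a like order, with 7.05, 7.18, 7.31 and 7.18 at 4 days, against 7.03, 6.93, 6.87 and 7.0 at 1 day. Here too every 4-day array was above every 1-day array, although the F test over times missed the threshold (F = 6.35, adjusted p = 0.155). The share of all genes whose arrays lie fully apart between times was not counted, here or below. Of the 9 genes 0 passed that F test and 2 had an unadjusted p under 0.05, against 0.246% and 16.4% of all genes. The celastrol arrays at 1 day were also below all celastrol arrays at 6 h, a difference of -0.19 (adjusted p = 0.336). A difference between treatments in the time course of Il1rn was not detected (adjusted p = 0.871).

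Pairwise differences between times were added after the F tests had been seen. In vehicle mice, 4 days minus 1 day, 3 of the 9 genes passed and all were higher at 4 days, against 11.8% of all genes called and 8.56% called higher. Il1rn differed by 0.30 (SE 0.0656, interval 0.16 to 0.43, adjusted p = 0.00757). Il1b differed by 0.36 (SE 0.0997, interval 0.15 to 0.57, adjusted p = 0.0234), with all 4-day arrays above all 1-day arrays, and its F test over the times gave an adjusted p of 0.0544. Il18r1 read 5.97, 6.03, 6.26 and 6.06 at 4 days, against 5.98, 5.80, 5.93 and 5.76 at 1 day, and the groups overlapped. Its difference was 0.21 (SE 0.0695, adjusted p = 0.0495). That call was lost in most alternative fits: the adjusted p was 0.0736 with limma-trend, 0.0873 with arrays centred on their medians, 0.0702 with only the groups compared and 0.115 with the pituitary markers as a covariate. In celastrol mice 0 of the 9 passed for 4 days minus 1 day and 1 had an unadjusted p under 0.05, against 0.353% and 15.1% of all genes. There Il1rn differed by 0.22 (SE 0.0656, adjusted p = 0.13) and Il1b by 0.05. Casp1 in celastrol mice was 5.65, 5.72, 5.94 and 5.66 at 1 day, all above 5.55, 5.43 and 5.41 at 6 h, a difference of 0.28 (SE 0.0769, adjusted p = 0.206). Vehicle arrays of Casp1 differed by 0.01 over the same interval.

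Array spread and markers of several other cell types moved with the vehicle times. The SD over genes was 1.886 to 1.907 on vehicle arrays at 4 days, against 1.933 to 1.962 at 1 day, and 81.6% of the lowest tercile of genes were higher at 4 days (median 0.121). The summed neutrophil and monocyte markers were 76.61 to 77.39 at 4 days, against 75.51 to 76.38 at 1 day, and the summed lymphocyte markers 46.26 to 47.21, against 44.9 to 45.43. By limma 1 of the 12 neutrophil and monocyte markers and 3 of the 7 lymphocyte markers passed. Over all genes 11.8% passed, the share to set beside this and the marker counts that follow. Markers of meningeal and perivascular fibroblasts moved most: 10 of 10 were higher at 4 days and 6 passed, with a median difference of 0.647. Their mean per array was 8.94, 9.09, 9.06 and 8.26 at 4 days, against 8.41, 8.16, 8.03 and 8.33 at 1 day, so 3 of the 4 arrays at 4 days were above all arrays at 1 day. The summed markers of mast cells (70.4 to 71.26 at 4 days, against 69.24 to 69.57 at 1 day) and of ependymal cells and tanycytes (87.73 to 88.03, against 86.45 to 86.88) did not overlap. Of each list 1 of 10 markers passed, near the share of all genes. The summed choroid plexus markers were 82.91 to 84.86 at 4 days, against 80.67 to 83.21 at 1 day, with 2 passing. Of the pituitary markers 9 of 9 were higher at 4 days and 2 passed, with a median difference of 0.352. Their sums overlapped (66.85 to 78.56 at 4 days, against 63.67 to 74.3 at 1 day). With the SD of each array as a covariate the vehicle difference, 4 days minus 1 day, was 0.22 for Il1rn (adjusted p = 0.466) and 0.11 for Il1b (adjusted p = 0.855), and with the blood markers 0.29 for Il1rn (adjusted p = 0.132) and 0.22 for Il1b (adjusted p = 0.418). Il18r1 differed by 0.11 with the array SD (adjusted p = 0.789) and by 0.15 with the blood markers (adjusted p = 0.467). With the fibroblast markers as a covariate the differences were 0.21 for Il1rn (adjusted p = 0.292), 0.35 for Il1b (adjusted p = 0.267) and 0.19 for Il18r1 (adjusted p = 0.38). With the pituitary markers they were 0.26 for Il1rn (adjusted p = 0.0217), 0.36 for Il1b (adjusted p = 0.0475) and 0.18 for Il18r1 (adjusted p = 0.115). The blood markers in these fits were those of neutrophils and monocytes only. The part of lymphocytes, mast cells, ependymal cells and tanycytes was not tested. The labels give no array date, so time and any array run cannot be told apart. The celastrol against vehicle differences above each use the vehicle group of their own time, including vehicle at 1 day, where Il1b and Il1rn were lowest.

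**Figure D3:**
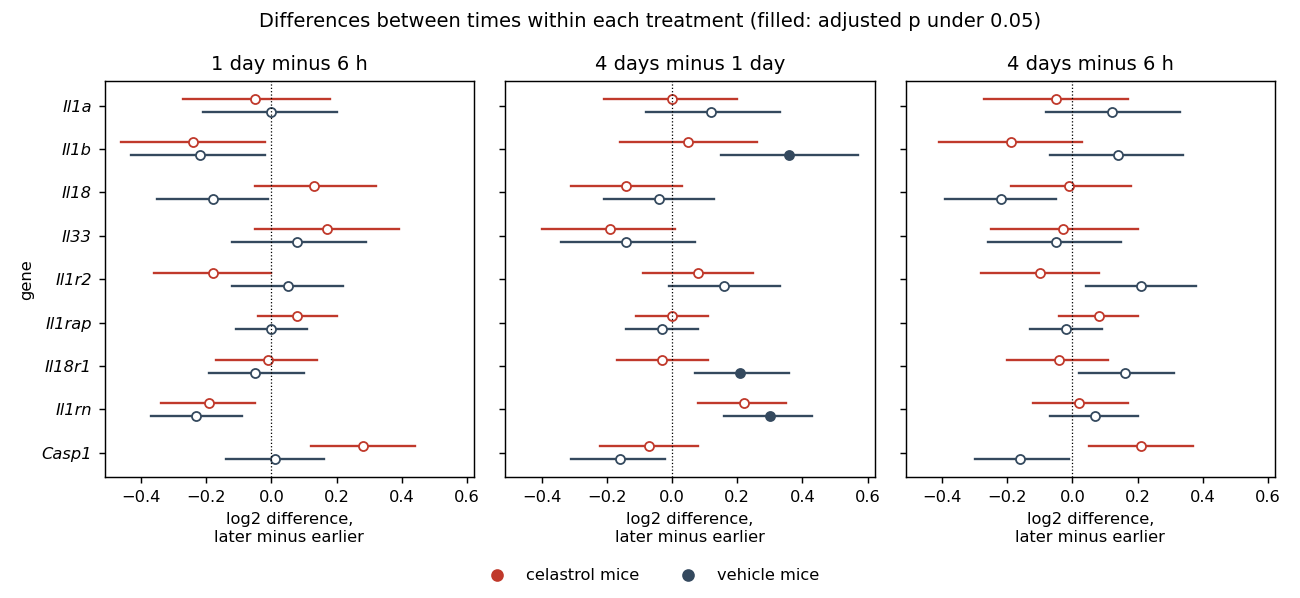
Log2 difference, later minus earlier time (x axis), with its 95% interval for the 9 genes (y axis), in celastrol mice (red, above) and vehicle mice (dark blue, below). Filled points passed an adjusted p of 0.05: Il1rn, Il1b and Il18r1 in vehicle mice, 4 days minus 1 day, at 0.30, 0.36 and 0.21.

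Around the 9 genes, 4 lists of the same pathway were read. Over all genes, 14.8% had an unadjusted p under 0.05 at 6 h, 12.5% at 1 day and 7.29% at 4 days. After adjustment 0%, 0.016% and 0% of all genes passed. Of 12 other ligands, receptors and decoys of the family, 7 were measured. By limma 0 passed between celastrol and vehicle at any time, and 1, 0 and 1 had an unadjusted p under 0.05 at 6 h, 1 day and 4 days. Il1rapl1, a synaptic relative of the accessory protein, differed by -0.16 at 6 h (adjusted p = 0.274), and Sigirr, an inhibitory receptor, by 0.16 (adjusted p = 0.353). Of 20 genes of receptor-proximal signalling, 17 were measured; 0 passed at any time, and 1, 0 and 0 had an unadjusted p under 0.05 at the 3 times. Their medians were -0.034 at 6 h, -0.0091 at 1 day and 0.014 at 4 days. Myd88, the adaptor of the receptor complex, was lower on every celastrol array at 6 h (difference -0.18, adjusted p = 0.246) and higher on every celastrol array at 1 day (0.12, adjusted p = 0.448), so neither difference passed. Of 15 genes of the inflammasome and of precursor processing, all were measured; 0 passed, and 3, 2 and 0 had an unadjusted p under 0.05. Ctsg, a neutrophil serine protease, differed by 0.23 at 6 h (adjusted p = 0.288), Elane, neutrophil elastase, by 0.23 at 1 day (adjusted p = 0.212), and Casp4 by 0.23 at 1 day (adjusted p = 0.286).

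Of 26 genes known to be induced by interleukin-1, 25 were measured. At 6 h, when Il1b was highest in celastrol mice, 0 passed, and 15 were higher and 10 lower, with a median of 0.020. An unadjusted p under 0.05 was found for 4, against 14.8% of all genes. Ccl2, a monocyte chemokine, differed by 0.29 (adjusted p = 0.24), and Cxcl1, a neutrophil chemokine, by 0.21 (adjusted p = 0.263). At 1 day 22 were higher and 3 lower with celastrol, and the median was 0.162. Of the 25, 12 had an unadjusted p under 0.05, against 12.5% of all genes, and 1 passed, against 0.016%. That gene was Lcn2, an iron-siderophore binding acute-phase protein, at 7.84 ± 0.655 (range 7.34 to 8.78) with celastrol and 6.48 ± 0.0182 (6.46 to 6.50) with vehicle, a difference of 1.36 (SE 0.226, adjusted p = 0.0413). The celastrol arrays of Lcn2 were all high but spread widely. The call ended in 8 of 15 other settings, among them limma-trend (adjusted p = 0.105), only the groups compared (0.0548), the fit without the arrays with Prl above 9 (0.105), the array SD as a covariate (0.427) and the blood markers (adjusted p = 1). It held in 9 of 23 leave-one-out fits, with an adjusted p of 0.0134 to 0.178, and was lost without any 1 of the 4 vehicle arrays at 1 day. Ch25h, which makes 25-hydroxycholesterol, differed by 0.79 and Lrg1, an acute-phase glycoprotein, by 0.63 (adjusted p = 0.0595 for each). Lif, a cytokine of the interleukin-6 group, differed by 0.27 (adjusted p = 0.141). At 4 days 13 were higher and 12 lower, with a median of 0.021. By then 0 passed and 1 had an unadjusted p under 0.05, against 0% and 7.29% of all genes. All genes had medians near 0 at each time, as given above. In the lowest tercile by level, however, 76.2% of genes were higher with celastrol at 1 day, with a median of 0.069. The part of expression level in the shift of the induced genes was not tested.

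Over the times, few genes of each list passed the F test. In vehicle mice, where 8.83% of all genes passed, they were Il18rap, the second chain of the interleukin-18 receptor (adjusted p = 0.0333), among 7 other family genes, and Peli1, a ubiquitin ligase that acts on IRAK proteins (adjusted p = 0.0208), among 17 signalling genes. Nek7, an activator of the NLRP3 inflammasome (adjusted p = 0.0436), and Elane (adjusted p = 0.0493) passed among 15 inflammasome genes, and Lif (adjusted p = 0.032) among 25 induced genes. All 5 calls ended with the array SD, the choroid plexus, the blood or the fibroblast markers as a covariate and without the arrays with Prl above 9. Over the leave-one-out fits Peli1 held in 21 of 23, Lif in 17, Il18rap in 16, Nek7 in 11 and Elane in 7. Il18rap averaged 6.49 at 4 days, 6.10 at 1 day and 6.32 at 6 h in vehicle mice, the order also seen for Il1rn and Lif. In celastrol mice, where 0.246% of all genes passed, Tnfaip3, an inhibitor of NF-kB signalling, and Ch25h passed (adjusted p = 0.0216 for each) among the induced genes. With only the groups compared both calls ended (adjusted p = 0.0917 for Tnfaip3 and 0.113 for Ch25h). Tnfaip3 also lost it without replicate 2, 3 or 4 of celastrol at 1 day and with quantile normalisation, and Ch25h without replicate 2 or 4. Tnfaip3 averaged 7.20 at 6 h, 6.93 at 1 day and 7.25 at 4 days, and Ch25h 6.49, 7.49 and 7.01 at the same times.

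**Figure D4:**
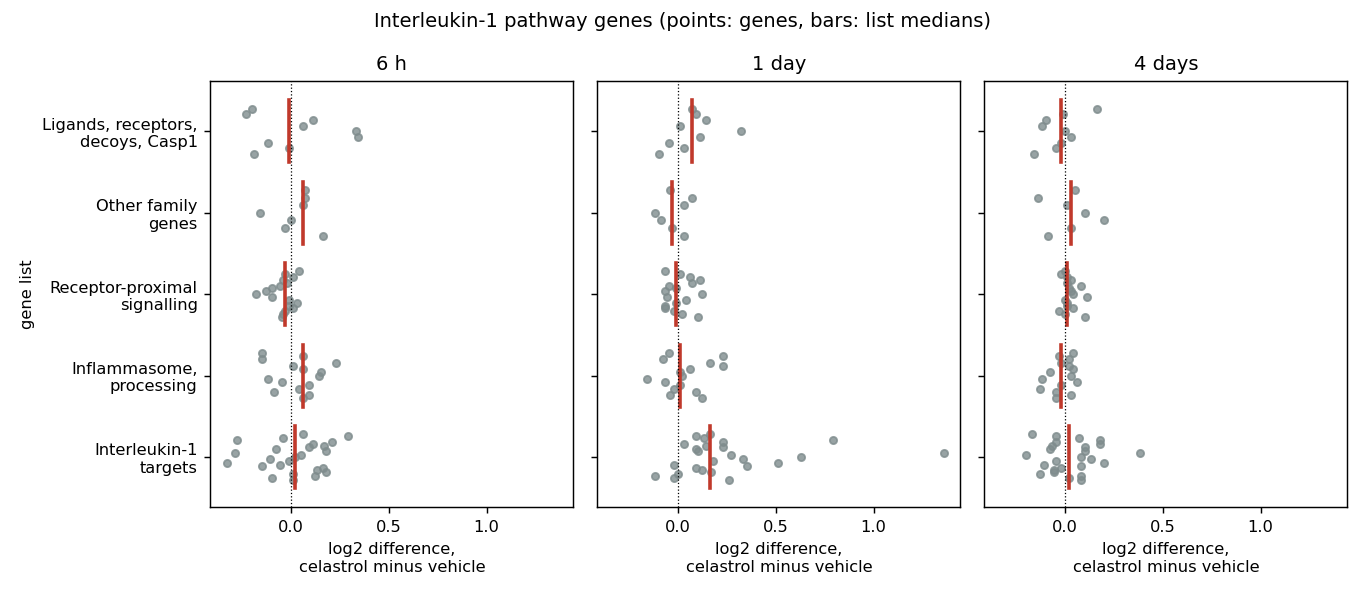
Log2 difference, celastrol minus vehicle (x axis), of each measured gene (grey points) in the 9 genes and the 4 pathway lists (y axis) at each time, with list medians as red bars. The induced genes at 1 day lie mostly to the right of 0 around a median of 0.162, with Lcn2 farthest at 1.36.

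Likeness was measured as Pearson's r of deviations from the group means over the 23 arrays, which share extraction and array effects. The genes most like Il1b were Zdhhc25 (0.81), Cish (0.81) and Siva1 (0.77), and those most like Il1r2 were Ptges3l (0.92), Ankzf1 (0.81) and Zfp513 (0.76). For Il1rn they were Tlr6 (0.80), Zc3hav1 (0.78) and Vmn2r-ps54 (0.75), and for Casp1 Fam161b (0.74), Dpp4 (0.72) and Nfe2l2 (0.72). The nearest genes of the others were Pbrm1 for Il1a (0.79), Cept1 for Il18 (0.88), Khk for Il18r1 (0.87), Klhl4 for Il33 (0.84) and Man1a for Il1rap (0.84). None of these genes is a member of the set or of the pathway lists. Within the set, Il1r2 and Il1rn had an r of 0.54, Il1rn and Casp1 of -0.57, and Il1b and Il33 of -0.55. Il1b had an r of 0.40 with the mean of the neutrophil and monocyte markers, 0.61 with the lymphocyte markers and -0.52 with the astrocyte markers. With the neutrophil and monocyte markers Il1r2 had an r of -0.00 and Il1a of -0.57. The highest r of a member with any marker list was 0.73, of Il1rap with the brain endothelial markers.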

How the data were processed

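Hypothalamic RNA of db/db mice was measured on 23 arrays of 1 colour. The deposited values are on the log2 scale, 1 per probe set; RMA is named in the submitters' processing notes, without a version, and no filter by the authors is stated there. They were used as deposited, without further normalisation. Of 23492 probe sets, 20228 name 1 gene in the platform annotation, 1399 several and 1865 none, and for genes with several probe sets that with the highest mean was kept, leaving 18702 genes. All arrays entered 1 limma fit of 6 group means, with limma 3.58.1 in R 4.3.3 (eBayes without trend, 17 residual and 5.424 prior degrees of freedom), with Benjamini-Hochberg adjustment over all genes at 0.05 and 2-sided tests. Replicate correlations over genes were 0.993 to 0.998. Precision is set by how many arrays a group has.

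The members and lists were chosen with earlier results of these data known. Named are all members, from each pathway list genes among the 4 smallest p-values at 6 h and at 1 day, and the 3 genes most like a member (the nearest only, for 5 of them); genes passing an F test over times and single cell-type markers were named after their values were seen. Pairwise differences between times, and the covariates for array SD, blood markers and fibroblast markers, were added after seeing the data. Motifs were searched on both strands of RefSeq windows. Same-numbered replicates had correlations of deviations from -0.08 to 0.19. Differently numbered replicates were not set beside them, so these values cannot show whether the numbers pair samples. The main fit took the samples as unpaired, and a fit with the replicate number as a block is given below. The model and its calls were run on simulated data, with normal noise drawn for each gene. Of log2 changes of 0.25, 40.3% were recovered at 6 h, 52.2% at 1 day and 35.8% at 4 days. False calls made up 6.59%, 6.82% and 4.88% of all calls. The simulation held no differences in array spread, so it cannot show how the calls behave under those. Beside 67 genes changed by 0.25, it changed 67 by 0.5 and 66 by 1 at each time. In the measured data 0, 3 and 0 of all genes passed at 6 h, 1 day and 4 days. The adjusted cutoff depends on how many genes change, so the recovered shares cannot be carried over to the members.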

Additional observations from a re-analysis of the deposited data

Results flagged for a closer look

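In groups of 4 arrays the gap of the highest or lowest array to its nearest neighbour was set against the range of the group, and 2 of 45 gene and group combinations stood past Dixon's critical value for 4 values. Chance gives about 1 in 20. Il1r2 on vehicle replicate 1 at 6 h was 6.44, below 6.62 to 6.64 on the other vehicle arrays, a gap of 0.921 of the range. Il1r2 on celastrol replicate 1 at 4 days was 6.66, below 6.87 to 6.88 on the other celastrol arrays, a gap of 0.952 of the range.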

How the results depend on the processing

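No member passed between celastrol and vehicle at any time, in the mean over times or in the test of unequal effects, under any alternative tried, leave-one-out fits and the replicate block included; the lowest adjusted p was 0.0868 for Il1b at 6 h, 0.0745 for Il1b at 1 day and 0.0751 for Il1r2 at 6 h. Their differences ranged from 0.14 to 0.39, 0.12 to 0.38 and 0.24 to 0.39. Over 54 differences of members, 1889 of 2034 alternative values, rounded to 2 decimals, had the main sign. These cover celastrol against vehicle, its mean over the times, and 4 days against 1 day under each treatment. Many could not differ, since leaving out an array outside the groups compared leaves a difference unchanged. The count thus does not measure how stable the signs are. In vehicle mice the F test over times called 1 member, but 0 without the lowest tercile of genes (which holds Il1rn), with quantile normalisation, the choroid plexus covariate, the array SD, the blood markers or the fibroblast markers, 2 with limma-trend or with only the groups compared, and 3 with array weights; leave-one-out gave 0 to 2. For Il1rn in that test the adjusted p was 0.159 with quantile normalisation, 0.238 with the choroid plexus covariate, 0.318 with the array SD, 0.138 with the blood markers and 0.235 with the fibroblast markers, and 22 of 23 leave-one-out fits kept its call. For vehicle mice, 4 days against 1 day, 3 members passed. The count was 0 without the lowest tercile (which holds them), with the choroid plexus covariate, the array SD, the blood markers or the fibroblast markers. With quantile normalisation Il1rn, Il1b and Il18r1 all lost the call (adjusted p = 0.16, 0.137 and 0.335). The 1 member that passed there was Casp1, lower at 4 days (adjusted p = 0.0464). Without the arrays with Prl above 9, 1 member passed, Il1rn. Leave-one-out gave 1 to 3. There Il1rn kept its call in 23 of 23 leave-one-out fits, Il1b in 18 (it lost it without vehicle replicate 1 or 2 at 1 day, adjusted p = 0.0772 and 0.0517, or replicate 1, 2 or 3 at 4 days, 0.0545, 0.0507 and 0.0584) and Il18r1 in 7 (adjusted p 0.0296 to 0.17). With the replicate number as a block, 1 member passed the vehicle F test and 2 passed 4 days against 1 day, Il18r1 being lost; the block changed no other call of a member, and of the list genes Lcn2 (adjusted p = 0.0629) and Elane lost theirs. The causes of these changes were not tested.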
